A study of Mus musculus with 12 samples.

Results

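The genes described are the D-type cyclins Ccnd1, Ccnd2 and Ccnd3 with the kinases they bind, Cdk4 and Cdk6. They were taken by gene symbol from the platform annotation, which gave 13 of the 45281 probes on the array. All 5 genes were among the 9388 genes tested, and 11 of the 13 probes exceeded the background limit on at least 6 of 12 arrays, the filter applied to every probe whatever the genotype. Erythroblasts from mouse bone marrow, carrying Ter119 and a high level of CD71 at sorting, were compared between mice with a cyclin E knock-in carrying T74A and T393A and wild type littermates. All animals were on strain background 129, and the labels used here give no age, sex, zygosity or number of animals. RNA was read on one-colour Illumina bead arrays, 6 per genotype. Arrays with adjacent numbers behaved as duplicates and were averaged, which left 3 samples per genotype: arrays 1 and 2, 7 and 8, and 9 and 10 for the wild type, and arrays 3 and 4, 5 and 6, and 11 and 12 for the knock-in.

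D-type cyclins are the regulatory subunits of Cdk4 and Cdk6. The assembled kinases phosphorylate the retinoblastoma protein and its relatives in G1, which releases E2F factors, and cyclin E with Cdk2 then carries the cell into DNA replication. In the erythroid lineage cyclin D3 is known from knockout mice to set how many divisions precede terminal maturation, and mice without Cdk4 and Cdk6 have a defect of red cell formation.

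Levels below are log2 values of quantile-normalised intensity after background correction with an offset of 50, so that differences of dim genes are understated. A difference is knock-in minus wild type, tested with limma across all genes with Benjamini-Hochberg adjustment and a threshold of 0.05. Since no label ties a sample to an animal, the p-values reflect only how far these samples scatter, a scatter that may be technical. Between 15988 and 18227 probes per array exceeded the background limit, and the number of arrays limits the precision. The first and last 4 arrays and arrays 5 to 8 each hold 1 sample of both genotypes, and the labels name no batch, day or chip for them. Ccne1, which encodes the altered cyclin, was 8.91 ± 0.38 in the wild type and 8.70 ± 0.36 in the knock-in (SD, n = 3 each), and since the substitutions alter codons this level does not check the genotype labels. Tfrc, the gene of the sorted protein CD71, was 11.87 ± 0.86 and 12.28 ± 0.37.

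None of the 5 genes passed the test. Over all genes, limma called 8 (0.0852%), each higher in the knock-in samples, and 0 lower. The difference was below 0 for Ccnd1, Ccnd2, Ccnd3 and Cdk4 and 0.01 for Cdk6, with a median of -0.31 over the 5 genes. The median over all genes tested was -0.03, and 58.4% of genes had a difference below 0. At an unadjusted p under 0.05, limma counted 1 of the 5 genes, Ccnd1, as lower and 0 as higher. Over all genes 8.65% passed this limma threshold, 3.09% lower and 5.56% higher. In Ccnd1 and Ccnd3 the knock-in samples lay below every wild type sample, which was the case for 6.47% of genes, while 7.23% had every knock-in sample above every wild type sample. After normalisation, Ccnd1, Ccnd2, Ccnd3 and Cdk4 were lower in each of the 3 sets of 4 consecutive arrays, against 23.5% of genes. This did not hold for the deposited intensities. There Ccnd3 read higher on the knock-in arrays in all but the first set. For Ccnd1, Ccnd2 and Cdk4 the deposited values of the genotypes overlapped within at least 1 set. Fewer cells of a type and less RNA per cell cannot be told apart in these bulk samples.

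**Figure D1:**
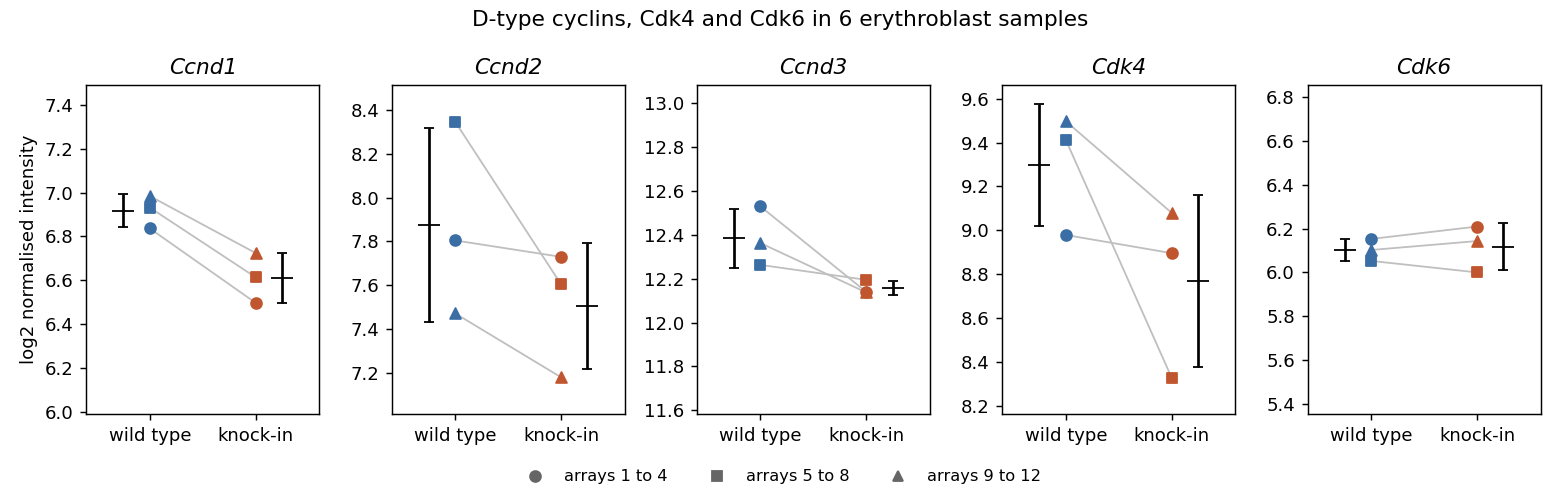
Log2 normalised intensity of the 5 genes in 3 wild type (blue) and 3 knock-in (orange) samples, each point the mean of 2 duplicate arrays, with grey lines joining samples from the same 4 consecutive arrays and black bars giving mean ± SD. Every axis spans the same 1.5 log2 units, and the genotypes do not overlap for Ccnd1 and Ccnd3.

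Ccnd3 encodes cyclin D3. Its brightest probe had deposited intensities of 3944 to 5482 units on wild type and 4376 to 5858 on knock-in arrays. Before normalisation the genotypes thus overlapped widely. Knock-in arrays 5 and 6 read 5822 and 5858 units, against 4998 and 4584 on wild type arrays 7 and 8. Knock-in arrays 11 and 12 read 4556 and 4376, against 3944 and 4335 on wild type arrays 9 and 10. In both of these sets the knock-in arrays were brighter before normalisation, and on arrays 1 to 4 they were dimmer. After normalisation the wild type samples were at 12.53, 12.26 and 12.36 and the knock-in samples at 12.14, 12.20 and 12.14. The knock-in samples lay close together and below the lowest wild type sample, by less than the spread among the wild type samples. The difference was -0.23 ± 0.10 (SE, limma adjusted p = 0.635), a level of 85.4% of the wild type with a 95% interval of 72.1% to 101%. Within the sets of 4 arrays it was -0.39, -0.07 and -0.23. With each array scaled by its 75th percentile in place of quantile normalisation the difference of Ccnd3 was -0.00025 (limma adjusted p = 1.0), so the lower level of Ccnd3 in knock-in samples depends on the scaling.

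The other 2 probes of Ccnd3, annotated to another RefSeq transcript of the gene than the brightest probe, gave other patterns. The second probe read 23.1 and 33.8 units on knock-in arrays 5 and 6 and 34.8 and 36.0 on wild type arrays 7 and 8. On the other 8 arrays it read between 249.2 and 388.6 units. Arrays 5 to 8 therefore stood apart from the rest in both genotypes, by -2.35 on the log2 scale, while the brightest probe shifted by -0.06. Its log2 level was 8.15 ± 1.48 for the wild type against 7.85 ± 1.28 for the knock-in, and the difference of -0.30 had a 95% interval of -2.62 to 2.01 in a fit over all probes. Of 4929 other kept probes that are not the brightest of their gene, counted after this pattern was seen, 2 were lower on arrays 5 to 8 by more than 2 while their gene's brightest probe moved by less than 0.5, this one and a probe of Rbm38, and 2 were higher, both of Actb. The dimmest Ccnd3 probe exceeded the background limit on 9 of 12 arrays and differed by 0.004 between the genotypes. Without arrays 5 to 8, a choice made after the second probe was seen, the brightest Ccnd3 probe differed by -0.31 (limma adjusted p = 0.827).

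**Figure D2:**
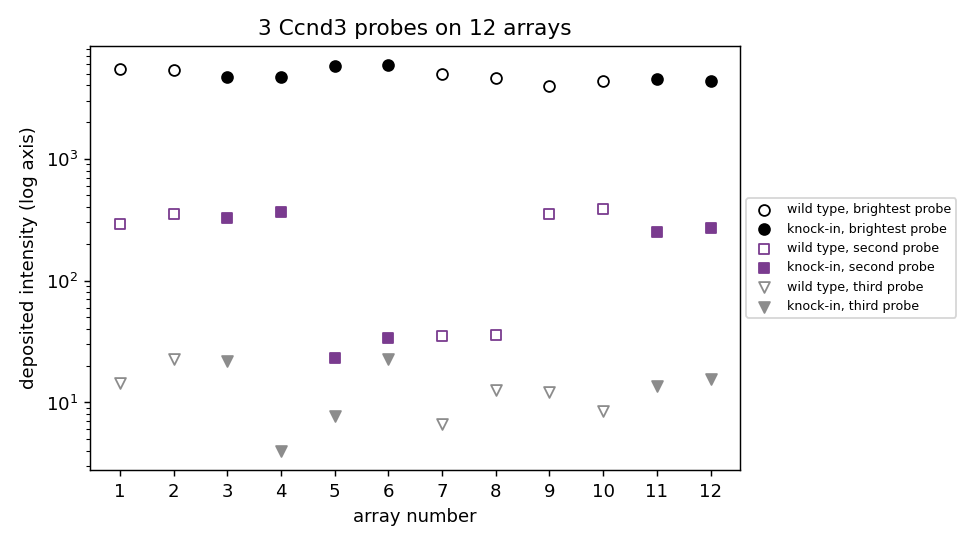
Deposited intensity of the 3 Ccnd3 probes on each of the 12 arrays (log axis), with open symbols for wild type and filled symbols for knock-in arrays. The second probe (squares) falls to between 23.1 and 36.0 units on arrays 5 to 8 in both genotypes, while the brightest probe (circles) stays between 3944 and 5858.

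RefSeq lists 2 starts of Ccnd3 on the plus strand of chromosome 17 (build GRCm38.p6). Because its probes are annotated to different transcripts, both windows are shown, 250 bases before to 50 after the start, with capitals marking the GC box GGGCGG on either strand.
Ccnd3, chr17:47504801-47505100: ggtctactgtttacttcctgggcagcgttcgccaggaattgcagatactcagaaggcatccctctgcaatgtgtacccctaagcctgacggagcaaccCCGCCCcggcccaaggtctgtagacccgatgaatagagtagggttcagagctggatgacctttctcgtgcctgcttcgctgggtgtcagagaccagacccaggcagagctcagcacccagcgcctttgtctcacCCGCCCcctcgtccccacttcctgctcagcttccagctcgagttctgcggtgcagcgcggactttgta
Ccnd3, chr17:47593217-47593516: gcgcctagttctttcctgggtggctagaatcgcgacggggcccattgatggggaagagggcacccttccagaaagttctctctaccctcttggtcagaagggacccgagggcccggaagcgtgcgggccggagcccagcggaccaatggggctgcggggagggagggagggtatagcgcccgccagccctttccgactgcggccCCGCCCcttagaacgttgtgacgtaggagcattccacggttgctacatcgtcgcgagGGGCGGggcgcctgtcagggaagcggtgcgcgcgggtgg
Each window held 2 GC boxes, a motif bound by Sp1-like factors and present in 35.7% of 32851 such windows. Neither held the E-box CACGTG, the GATA site AGATAA (also starting with T, ending in G, or both), or the STAT motif TTCNNNGAA, each searched on both strands. These were present in 7.15%, 29.8% and 8.3% of all windows. The table of probes used here gives no positions, so which start belongs to which probe was not tested.

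Ccnd2 encodes cyclin D2, which in blood cells responds to cytokine receptors. Its brightest probe read 67.6 to 317.9 deposited units on wild type and 58.9 to 196.3 on knock-in arrays. After normalisation it was at 7.80, 8.35 and 7.47 in wild type and at 7.73, 7.61 and 7.18 in knock-in samples. Samples of both genotypes were intermixed, with the highest value in wild type arrays 7 and 8 and the lowest in knock-in arrays 11 and 12. The difference was -0.37 ± 0.25 (SE, limma adjusted p = 0.826), a level of 77.4% of the wild type with a 95% interval of 50.9% to 118%. Within the sets of 4 arrays it was -0.07, -0.74 and -0.29, the largest on arrays 5 to 8. Without wild type arrays 7 and 8 the Ccnd2 difference was -0.13 (limma adjusted p = 0.938), and -0.57 once wild type arrays 9 and 10 were dropped instead. Dropping knock-in arrays 11 and 12 gave -0.21 for Ccnd2 and dropping arrays 5 to 8 gave -0.18. A second Ccnd2 probe above background on all 12 arrays differed by -0.32, and its 3 within-set values of -0.01, -0.74 and -0.22 ran alongside those of the first. Of 2 dimmer probes, 1 was above the limit on 7 arrays and differed by -0.16, and the other exceeded it on 1 array.

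Ccnd1 encodes cyclin D1, a mitogen-induced cyclin that is broadly expressed outside the blood lineages. Its brightest probe was dim, at 34.7 to 76.2 deposited units on wild type and 30.1 to 52.3 on knock-in arrays, but exceeded the background limit on all 12. The wild type samples were at 6.84, 6.93 and 6.98 and the knock-in samples at 6.50, 6.61 and 6.72. Every knock-in sample was below every wild type sample, and the 3 within-set differences of -0.34, -0.32 and -0.26 were close to each other. The difference was -0.31 ± 0.10 (SE, limma adjusted p = 0.398), a level of 80.9% of the wild type with a 95% interval of 68.4% to 95.7%. Because of the offset of 50 this understates the ratio of the signals themselves, and the difference was -0.72 without background correction (limma adjusted p = 0.497) and -0.72 with the authors' processed values (limma adjusted p = 0.498). A second Ccnd1 probe above background on all 12 arrays was lower in every knock-in sample too and differed by -0.22, with a 95% interval of -0.39 to -0.06 in the fit over all probes (limma adjusted p = 0.618). The dimmest probe exceeded the limit on 3 wild type and 0 knock-in arrays.

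**Figure D3:**
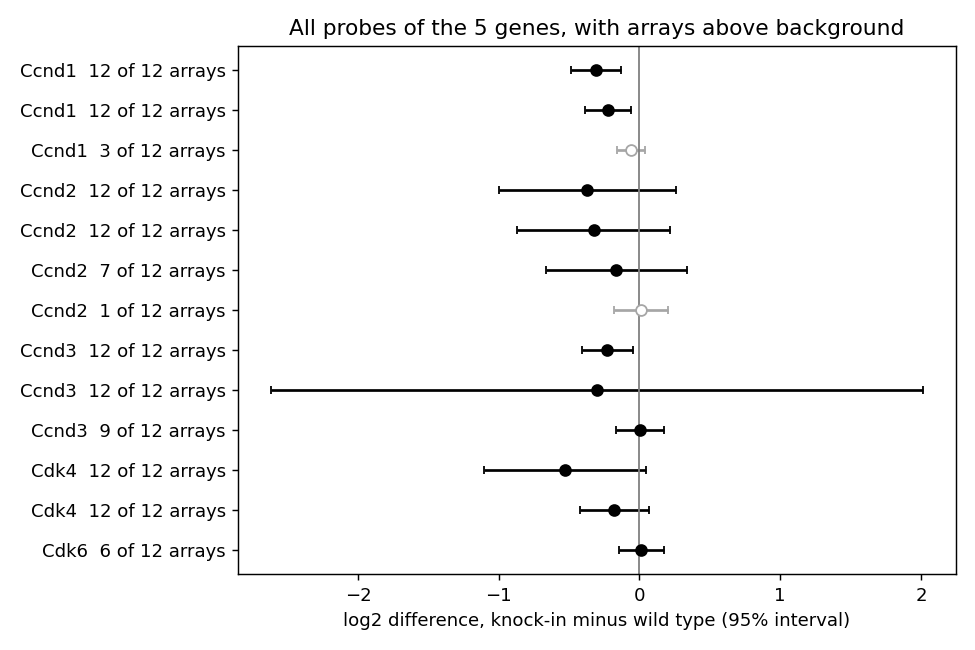
Log2 difference between 3 knock-in and 3 wild type samples for all 13 probes of the 5 genes, with 95% intervals from a limma fit over all 45281 probes. Filled points are probes above background on at least 6 arrays, and the widest interval, -2.62 to 2.01, belongs to the second Ccnd3 probe. Intervals can differ from those of the fit over 9388 genes. The brightest Ccnd3 probe spans -0.41 to -0.05 here (limma adjusted p = 0.696) and -0.47 to 0.02 in the fit over genes.

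Cdk4 encodes the catalytic partner of D-type cyclins. Its brightest probe read 394.6 to 678.4 deposited units on wild type and 361.6 to 441.2 on knock-in arrays. After normalisation it was at 8.98, 9.41 and 9.50 in wild type and at 8.90, 8.33 and 9.08 in knock-in samples. One knock-in sample, arrays 11 and 12, exceeded the lowest wild type sample, so the genotypes overlapped. The difference was -0.53 ± 0.23 (SE, limma adjusted p = 0.628), a level of 69.3% of the wild type with a 95% interval of 47.1% to 102%. It was uneven over the arrays, with -0.08, -1.08 and -0.42 within the sets of 4. Without knock-in arrays 5 and 6 the Cdk4 difference was -0.31 (limma adjusted p = 0.765), with 75th percentile scaling -0.32, and without arrays 5 to 8 -0.25 (limma adjusted p = 0.981). A dimmer Cdk4 probe, above background on all 12 arrays, differed by -0.18 and by -0.11, -0.21 and -0.22 within the sets.

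The Cdk4 promoter window is shown because Myc is known from human cells to act through E-boxes near the start of this gene. Of the 5 genes Cdk4 had the difference farthest from 0 in the fit reported here, but Ccnd1 was farther from 0 without background correction (-0.72 against -0.60), with the authors' processed values (-0.72 against -0.60) and with array weights (-0.36 against -0.35). Ccnd2 was farther without wild type arrays 9 and 10 (-0.57 against -0.43) and without knock-in arrays 5 and 6 (-0.42 against -0.31), and both Ccnd3 (-0.31) and Ccnd1 (-0.30) were farther than Cdk4 (-0.25) without arrays 5 to 8. The Cdk4 window lies on the plus strand of chromosome 10 (RefSeq, build GRCm38.p6), and capitals mark E-boxes (CACGTG) and GC boxes (GGGCGG on either strand).
Cdk4, chr10:127063285-127063584: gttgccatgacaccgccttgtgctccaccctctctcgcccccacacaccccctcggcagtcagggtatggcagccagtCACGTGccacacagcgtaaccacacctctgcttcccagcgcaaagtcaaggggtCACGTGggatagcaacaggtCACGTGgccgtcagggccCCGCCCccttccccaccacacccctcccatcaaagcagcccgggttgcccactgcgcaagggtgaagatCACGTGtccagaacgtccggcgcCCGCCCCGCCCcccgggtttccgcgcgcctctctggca
The window held 4 E-boxes, at 172, 118, 98 and 11 bases before the start, and 3 GC boxes, of which 2 overlap. At least 1 E-box was present in 7.15% of all windows and 4 or more in 8 of 32851 (0.0244%). The window of Cdk6 held 1 E-box and 0 GC boxes. Myc itself was dim, with 6.31 ± 0.09 for the wild type against 6.23 ± 0.08 for the knock-in, and differed by -0.07 ± 0.10 (SE, limma adjusted p = 0.959). A match is a description of the letters and was not tested as a site.

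Cdk6 encodes the second kinase partner, which is known to be abundant in blood progenitors. Its only probe was near background, above the limit on 6 arrays, 3 from each genotype, with deposited values of -1.8 to 14.0 units. The wild type samples were at 6.15, 6.05 and 6.10 and the knock-in samples at 6.21, 6.00 and 6.14. Duplicate arrays of Cdk6 differed by up to 0.415, more than the samples of either genotype differed among themselves, and the difference of 0.01 ± 0.10 (SE, limma adjusted p = 0.999) was smaller than this gap. Changes in Cdk6 were not detectable at this signal. For the other 4 genes duplicate arrays differed by at most 0.193.

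Genes of one family were compared with 4 contrasts within each sample. All 20 assignments of genotype were enumerated in an exact, two-sided permutation test whose smallest possible p is 0.1. The test therefore cannot pass the threshold of 0.05 and cannot decide whether the genes moved unequally. Ccnd2 minus Ccnd3 changed by -0.14 between wild type and knock-in samples (exact p = 0.8), Ccnd1 minus Ccnd3 by -0.08 (exact p = 0.7) and Ccnd1 minus Ccnd2 by 0.06 (exact p = 0.8). Cdk6 minus Cdk4 changed by 0.54 (exact p = 0.2), with the Cdk6 probe near background and a Cdk4 difference of -0.53 by itself. After adjustment over the 4 contrasts each permutation p was 0.8.

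With the sets of 4 consecutive arrays as a term in the fit, limma counted 0 of the 5 genes past the threshold, with adjusted p of 0.15 for Ccnd1, 0.278 for Cdk4, 0.292 for Ccnd2, 0.321 for Ccnd3 and 0.955 for Cdk6. This fit called 0.937% of all genes, 0.266% as lower. Its unadjusted p was under 0.05 for Ccnd1, Ccnd2 and Cdk4, each lower, against 8.13% of all genes.

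The rest of the pathway was read from 5 lists with 102 tested genes, none of them a D-type cyclin, Cdk4 or Cdk6. Of these, 1 passed, Cdkn1a, which rose, against 0.0852% of all genes tested. Over all genes 58.4% had a difference below 0, and the lists were chosen with earlier results of these data known. The inhibitors of Cdk4 and Cdk6 with the pocket proteins that these kinases phosphorylate had 7 of 10 genes tested, all 7 with a difference above 0 and a median of 0.55. Cdkn1a encodes p21, which inhibits Cdk2 and also joins cyclin D complexes, and it went from 6.90 ± 0.16 to 8.62 ± 0.16 (SD, n = 3 each), a 3.31-fold rise (limma adjusted p = 0.0194). With samples left out in turn, the Cdkn1a call held only without wild type arrays 9 and 10 (limma adjusted p = 0.047), and it was lost without arrays 5 to 8. Cdkn1b, which encodes p27, differed by 1.02 ± 0.15 (SE, limma adjusted p = 0.113, and 0.0276 with the sets of 4 arrays as a term). Cdkn2d encodes p19, a direct inhibitor of Cdk4 and Cdk6, and differed by 0.83 ± 0.24 (SE, limma adjusted p = 0.322, and 0.0493 with the sets as a term). Dimmer probes differed by 1.30 and 0.60 for Cdkn1a and by 0.31 for Cdkn1b. Cdkn2c, which encodes p18 of the same inhibitor family, differed by 0.54 ± 0.25 (SE, limma adjusted p = 0.643). Rb1, the retinoblastoma gene, differed by 0.55 ± 0.33 (SE, limma adjusted p = 0.774), with -0.05, 0.55 and 1.16 within the sets of 4 arrays. For both genes the samples of the genotypes overlapped. Cdkn2b and Rbl2 exceeded the limit on no array.

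**Figure D4:**
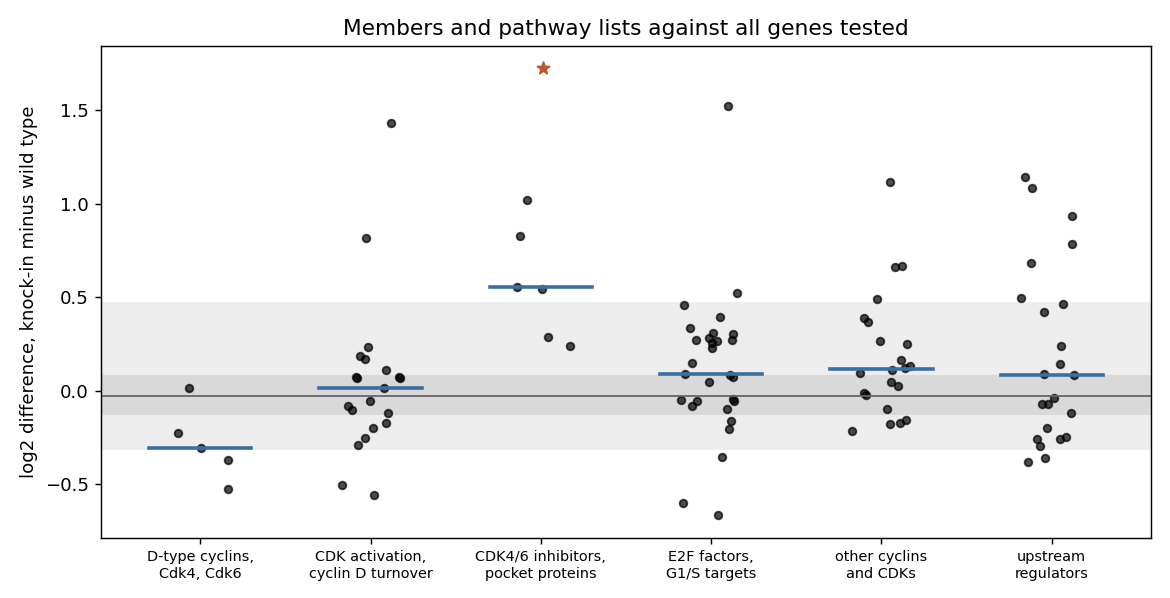
Log2 difference between knock-in and wild type for the 5 genes and for the tested genes of each pathway list, 1 point per gene, with a star for the gene past the threshold and blue lines for medians. Grey bands hold the 25th to 75th (-0.13 to 0.08) and the 5th to 95th percentiles (-0.31 to 0.47) of all 9388 genes.

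E2F factors and genes of the G1/S transition had 29 genes tested, 18 with a difference above 0 and a median of 0.09. In this list 0 passed. The 3 with the smallest p were Ccne2, the second E-type cyclin, at 1.52 ± 0.28, Ung, a uracil-DNA glycosylase, at -0.67 ± 0.14, and E2f2, an E2F factor prominent in erythroid cells, at 0.52 ± 0.14 (SE, limma adjusted p = 0.141, 0.18 and 0.297). Dimmer probes differed by -0.25 for Ung and by 0.38 and 0.34 for E2f2. With the sets of 4 arrays as a term Ccne2 passed (limma adjusted p = 0.0302). Cdk2 differed by 0.28 ± 0.14 and Ccna2 by 0.25 ± 0.20 (SE, limma adjusted p = 0.667 and 0.882), with overlapping genotypes for both.

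Genes of kinase activation, chaperoning and cyclin D turnover had 21 tested members, 11 above 0, a median of 0.01, and 0 passed. Dyrk1a, a kinase that phosphorylates D-type cyclins and marks them for degradation, differed by 0.82 ± 0.13 (SE, limma adjusted p = 0.121), and its dimmer probe by 0.17. Hsp90aa1, the inducible Hsp90 that with Cdc37 folds Cdk4, differed by 1.43 ± 0.26 (SE, limma adjusted p = 0.141, and 0.0267 with the sets of 4 arrays as a term). A dimmer Hsp90aa1 probe differed by 0.78. Ambra1, the substrate receptor through which D-type cyclins are ubiquitinated, differed by -0.25 ± 0.09 (SE, limma adjusted p = 0.456) and by -0.31 and -0.02 on 2 dimmer probes.

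Upstream regulators in blood cells had 23 tested members, 12 above 0, a median of 0.08, and 0 passed. Foxo3, a transcription factor that represses D-type cyclins in other cell types, differed by 0.94 ± 0.22 (0.25 on a dimmer probe), Pim1, a kinase induced by Stat5, by 1.14 ± 0.33, and Tal1, an erythroid transcription factor, by 0.79 ± 0.23 (SE, limma adjusted p = 0.233, 0.32 and 0.322). Pim1 passed with the sets of 4 arrays as a term (limma adjusted p = 0.0493). Other cyclins and cyclin-dependent kinases had 22 tested members, 15 above 0, a median of 0.12, and 0 passed. Ccng1, which encodes the p53-induced cyclin G1, differed by 1.12 ± 0.22 on its brightest probe (SE, limma adjusted p = 0.154) and by 2.59 and 2.64 on 2 other probes. With the mean of its probes Ccng1 differed by 2.12 and passed (limma adjusted p = 0.00216), and it also passed with the sets of 4 arrays as a term (limma adjusted p = 0.0267). Cdk1, the mitotic kinase, differed by 0.66 ± 0.24, and Ccnl1, a cyclin of RNA processing, by 0.67 ± 0.29 (SE, limma adjusted p = 0.475 and 0.607). On dimmer probes Ccnl1 differed by 0.59 and 0.50.

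Markers of other marrow cells were measured beside these genes. Of 18 B lineage markers with a probe 15 were tested, 14 with a difference below 0, and their summed intensity was 3876 to 6828 in wild type and 2132 to 2375 in knock-in samples, while Pax5 and Rag2 exceeded the limit on no array. All 9 tested of 12 markers of mast cells, basophils and eosinophils were below 0, with sums of 26966 to 37848 and 19640 to 25915, and Il5ra, Mcpt4 and Tpsb2 were on no array above the limit. For both sums the genotypes did not overlap, lower in the knock-in. Singly, 10 of the 15 B lineage markers were lower in every knock-in sample than in every wild type sample. This was so for 2 of the 9 mast cell, basophil and eosinophil markers, against 6.47% of all genes. Prg2 was the brightest of these 9, and their mean log2 level was 9.455 in the lowest wild type and 9.454 in the highest knock-in sample. All 7 tested T and NK markers of 10 with a probe were below 0, with sums of 1283 to 2438 and 1250 to 2115, and Cd8a, Cd4 and Gzmb exceeded the limit on no array. Likewise all 10 tested macrophage and monocyte markers of 11 were below 0 (1926 to 4884 and 1649 to 3256), 7 of 8 tested early progenitor markers of 12 (623 to 1273 and 500 to 836), and all 4 tested endothelial and stromal markers of 11 (323 to 800 and 181 to 519). The sums of these 4 lists overlapped between the genotypes. Over all genes tested, 58.4% had a difference below 0. Neutrophil markers, with 13 of 13 tested and 8 below 0, had sums of 164690 to 224107 and 149984 to 219295. Megakaryocyte markers, with 9 of 10 tested and 5 below 0, had sums of 1356 to 3026 and 1670 to 3087. Late erythroid markers, with 20 of 21 tested, 9 below 0 and Epb42 on no array above the limit, had sums of 195862 to 220696 and 196250 to 216494. The part of any of these cell types in the differences of Ccnd1, Ccnd2, Ccnd3 and Cdk4 was not tested.

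For each of the 5 genes, the 3 genes with the most similar profile were taken by the root mean square distance of log2 values over the 6 samples, each gene centred on its own mean. Ccnd3 was nearest to Ufd1 (0.036), Mta2 (0.037) and Wdr7 (0.038), and Ccnd1 to Xrcc1 (0.035), Phkg2 (0.041) and Med10 (0.043). Ccnd2, which varied more, was nearest to Prkacb (0.08), Gm5150 (0.108) and Tnpo3 (0.118), and Cdk4 to Ear10 (0.089), Ppp2r1a (0.117) and Rbck1 (0.148). The neighbours of Cdk6 were Alg8 (0.019), Nono (0.021) and Tbccd1 (0.025). Cdk6 itself was near background and varied little, with an SD of 0.075 over the 6 samples.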

How the data were processed

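Per the labels' protocols, total RNA of sorted erythroblasts was extracted with Trizol, cleaned and treated with DNase, and labelled with biotin for Illumina arrays. Per the submitters' processing notes, GenomeStudio was used (no version). The authors deposited non-normalized intensity values of 45281 probes on 12 arrays, of which 33.1% to 37.0% per array were below 0, so background had been subtracted. A second deposited table holds processed intensity values made by an unstated method, and served as an alternative.

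Each group came from the sample titles. Intensities were corrected with limma's normexp (offset 50), quantile-normalised and taken to log2. Centred on each probe's mean, arrays of adjacent number correlated at 0.842 to 0.945 and other arrays of one genotype at -0.38 to 0.217, so adjacent pairs were averaged. Probes were kept above the 90th percentile of mirrored negative values (6.6 to 7.7 units) on at least 6 arrays, which left 16894. A gene was represented by its brightest kept probe with 1 symbol in the platform annotation, with 9388 genes in all. Tests used lmFit and eBayes of limma 3.58.1 (R 4.3.3), also tested on simulated data, and figures drawn with matplotlib 3.10.9. Summed marker intensities are normalised values less the offset. Promoters came from RefSeq (GRCm38.p6), with windows for Ccnd3, Cdk4 and Cdk6.

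The members, lists and alternatives were chosen with earlier results of these data known. Named are the 5 genes with all probes, genes of each pathway list that pass or have the 3 smallest p, the 3 most similar genes of each member, Tfrc, and markers by count; Ccne1, Cdk2, Ccna2, Cdkn2c, Rb1, Myc, Rbm38, Actb and genes at background were named after their values were seen. Alternatives were other background, scaling, filter, probe, replicate, block, weight and variance settings, and each sample left out.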

Additional observations from a re-analysis of the deposited data

How the results depend on the processing

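The 5 genes were refitted under 13 other settings and with each of the 6 samples left out, and, chosen after the data were seen, without arrays 5 to 8. Ccnd1, Ccnd2 and Cdk4 stayed below 0 in all of these, between -0.72 and -0.25, -0.57 and -0.13, and -0.69 and -0.25. Ccnd3 ranged from -0.31 to -0.00025, the latter with 75th percentile scaling and in effect no difference. Counting the 12 arrays as 12 samples, which treats duplicates as independent, called 2 of the 5 genes, Ccnd1 at -0.306 and Ccnd3 at -0.228 (limma adjusted p = 0.0125 and 0.0474), and 19 pathway genes. Over all 9388 genes limma called 536 higher and 324 lower in this setting, against 8 and 0 in the fit reported. No other setting called any of the 5. Cdk6, 0.015 as reported, was 0.31 with the authors' processed values and 0.303 when background was not corrected, turned to -0.017 with 75th percentile scaling, and ranged from -0.031 to 0.074 with samples left out. It could not be fitted with probes required above the limit on all 12 arrays.

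Pathway genes called numbered 1 as reported, 11 with duplicates as a random block, 7 with the sets of 4 arrays as a term, 2 with the mean of a gene's probes, 2 with array weights, 0 without arrays 5 to 8, and 0 to 1 with a sample left out: 1 without wild type arrays 9 and 10, 0 without any other. Calls over all 9388 genes moved too. In the same order, those higher and lower were 8 and 0, 237 and 46, 63 and 25, 11 and 1, 34 and 10, and 0 and 0. They were 4 and 2 without wild type arrays 9 and 10, and at most 2 and 0 without any other sample. Ccnd2 minus Ccnd3 was 0.125 without arrays 5 to 8 and -0.33 to 0.156 with a sample left out. Ccnd1 minus Ccnd3, -0.078 as reported, was -0.486 without background correction, -0.485 with the authors' processed values, -0.273 with 75th percentile scaling (exact permutation p = 0.1, the smallest possible), 0.00804 without arrays 5 to 8, and -0.191 to -0.00976 with a sample left out. Ccnd1 minus Ccnd2 was -0.196 without background correction, -0.00261 with 75th percentile scaling, -0.195 with the authors' processed values, -0.117 without arrays 5 to 8, and -0.165 to 0.298 with a sample left out. The cause of these changes was not tested. The genotypes share no replicate numbers in the labels, so none were used as a block. The fit with the sets of 4 arrays as a term compares the genotypes within each set. Cdk6 and the dimmest probes are limited by signal near background.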
